A study of Homo sapiens with 6 samples.

Results

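92.1 and Mel 270 are established human cell lines of uveal melanoma, and the subject here is how their gene expression differed when each line was grown alone. The arrays were chosen by their titles and by the label that nothing was co-cultured with the cells, which gave 2 of the 6 arrays in the series, 1 for each line. Per the labels, both lines stem from choroidal uveal melanoma, 80000 cells of 92.1 or 100000 cells of Mel 270 were plated, serum-free medium replaced the serum-containing one while both lines were still subconfluent, and culture then went on for 64 h. The adherent cells were scraped off and their total RNA was hybridized to Affymetrix arrays. No transgene, knockdown or drug is named for either line, and each line stands for a single tumour. A further 2 arrays, of the same lines kept for 64 h below a porous insert with activated T cells, served only to see whether a difference between the lines was also present in that other culture. Each line had 1 array per condition and the labels name no repeat cultures, so no value has an SD, no difference has a test, and a difference between the lines cannot be told apart from a difference between these particular wells.

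Uveal melanoma arises from the melanocytes of the choroid, ciliary body or iris. Most of these tumours carry an activating mutation in GNAQ or GNA11, which encode alpha subunits of Gq-class G proteins, and both lines described here are known to carry a mutated GNAQ. Active Gq switches on phospholipase C beta, whose products release calcium through inositol trisphosphate receptors and activate protein kinase C and, through it, the MAPK pathway. Tumours are also sorted by a small set of transcripts into class 1, which seldom spreads, and class 2, which often does, and the antigen PRAME marks a higher risk within these classes.

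Levels are log2 signals, and a difference is the log2 value in 92.1 minus that in Mel 270, so that a difference of 1 is a 2-fold higher signal in 92.1 and a difference of -1 is a 2-fold lower one. The array medians over all probe sets were both 6.63. All 6 melanocyte markers with a named probe set (TYR, TYRP1, PMEL, MLANA, MITF and SOX10) lay between 8.87 and 13.19 in 92.1 and between 9.21 and 13.05 in Mel 270, far above the filter level of 5.76 that is described next. A small set of defining markers of other cells, 21 genes of T and B cells, macrophages, endothelium, epithelium and retinal pigment epithelium, lay at 6.84 or below in both lines. Among the fibroblast markers, COL1A1 stood at 7.49 in 92.1 and 7.38 in Mel 270, and LUM at 6.50 and 10.12. LUM encodes lumican, a collagen-binding proteoglycan. Of the longer marker lists, EMCN, best known from endothelium (10.58 and 10.97), CD68, a lysosomal protein of macrophages (10.07 and 9.33), and BEST1, a channel of retinal pigment epithelium (8.98 and 10.41), were well expressed in both lines. Other members of those lists above 6.84 in either line were CD7 (8.12 and 8.26), LTB (7.65 and 7.80) and NKG7 (6.95 and 7.25) of lymphocytes, TYROBP (7.50 and 7.83) of myeloid cells, CD79B (6.49 and 7.11) of B cells, CLDN5 (6.88 and 6.86) of endothelium and KRT18 (8.09 and 7.96) of epithelium.

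Of 18394 genes with a probe set of 1 symbol, 13802 had a mean over both arrays of at least 5.76, the lower quartile, and entered the comparison. The median difference over these genes was -0.026 and the median size of a difference was 0.28. The only measure of error within these arrays comes from genes read by more than 1 probe set: over 558 such genes, the SD of the gap between the differences of 2 probe sets was 0.36, which is 0.26 for a single probe set. Of 42 genes at least 2-fold apart by their first probe set, 40 differed in the same direction by their second, and 28 were at least 2-fold apart by it too. The median size of the gap was 0.08. Whether the probe sets of a gene share probes was not examined, so their agreement may be partly built in and the error too small. This error covers the reading of a gene by more than 1 probe set and not repeat cultures, RNA preparations or arrays.

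The lines differed most in genes that were strongly expressed in 1 of them and near the bottom of the scale in the other. Of the 13802 genes, 877 (6.35%) were at least 2-fold higher in 92.1 and 508 (3.68%) at least 2-fold lower, which is 10.0% either way. These shares over all genes are the background for every count of list members grown alone. For counts with T cells the background is 7.48% higher and 5.59% lower, over the same 13802 genes. The lists were chosen with earlier results of these data known, so a share above the background describes a list and is no test of it. At least 8-fold higher were 95 genes (0.688%) and at least 8-fold lower 54 (0.391%). In 68 of those 95 genes Mel 270 lay below the filter level, and in 39 of those 54 genes 92.1 did. The same held for 227 of the 877 genes and 108 of the 508, which passed the filter only through the line where they were higher. Signals that low are close to the background of the array, so the size of such a difference is imprecise, and folds with every value below 5.76 raised to 5.76 are given beside the largest ones.

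By the signals as deposited, the first of the 15 largest differences was in SLC38A1, a sodium-coupled transporter that brings glutamine and other neutral amino acids into the cell. It stood at 12.17 in 92.1 and 4.15 in Mel 270, a difference of 8.02 (259-fold, or 85.3-fold with the low value raised). The T cell arrays gave the same 8.02, from 12.28 and 4.26. PCDH20, a protocadherin of cell contacts, stood at 12.26 in 92.1 and 5.11 in Mel 270 (difference 7.16, 143-fold, or 91.0-fold with the low value raised, which is then above SLC38A1, so their order is not settled). MGST1, a membrane-bound glutathione transferase, stood at 10.45 and 3.80 (difference 6.65). All 3 were thus strongly expressed in 92.1 and below the filter level in Mel 270. MAL2, a protein of membrane sorting, differed by 5.72, CASD1, an enzyme that acetylates sialic acids, by 5.25, and FZD6, a Frizzled receptor for WNT ligands, by 5.20. Also among the 15, though not next to each other in rank, were several neuronal surface proteins. The glutamate receptor subunit GRIA4 stood at 10.05 in 92.1 and 4.82 in Mel 270 (difference 5.24), and the adhesion molecules NRCAM, NLGN1 and CNTN1 differed by 4.61, 4.54 and 4.49. The other genes among the 15 largest were the antisense transcript ZNF667-AS1 (5.16), the testis-enriched chaperone HSPA2 (4.93), the collagen lysyl hydroxylase PLOD2 (4.92), the zinc finger gene ZNF518A (4.79) and the adaptor DOK5 (4.57). Mel 270 lay below the filter level in 14 of these 15 genes, HSPA2 at 6.26 being the exception.

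In the other direction, the deposited signals put first CD109, a membrane-anchored protease inhibitor that binds transforming growth factor beta. It stood at 4.48 in 92.1 and 10.35 in Mel 270, a difference of -5.87 (58.3-fold, or 24.1-fold with the low value raised). With low values raised CD109 differed by -4.59, behind SLC1A4 (-5.03), APOD (-4.78) and KRTAP19-1 (-4.65), so this order is not settled either. KIT, the receptor for stem cell factor on which melanocyte precursors depend, stood at 4.50 and 10.19 (difference -5.69). RGS1, which speeds the switching off of Gi and Gq proteins, stood at 3.72 and 9.16 (difference -5.44), and the nuclear DNA sensor IFI16 at 4.69 and 10.06 (difference -5.37). All 4 were thus well expressed in Mel 270 and below the filter level in 92.1. PRAME stood at 5.21 in 92.1 and 10.28 in Mel 270 (difference -5.07, 33.7-fold, or -4.52 on the log2 scale with the low value raised). RELN, the secreted guidance protein reelin, differed by -5.15, and CRYAB, a small heat shock protein, by -5.03. SLC1A4, a neutral amino acid exchanger, was an exception in level, since it was still at 7.09 in 92.1 against 12.12 in Mel 270 (difference -5.03). FAM114A1 (-5.36), the zinc finger gene ZNF426 (-5.03), the magnesium transporter relative NIPAL3 (-4.97), HTATIP2 (-4.89), the keratin-associated KRTAP19-1 (-4.85), the retinoid receptor RXRG (-4.84) and the lipocalin APOD (-4.78) made up the rest of the 15. 92.1 lay below the filter level in 13 of these 15.

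**Figure D1:**
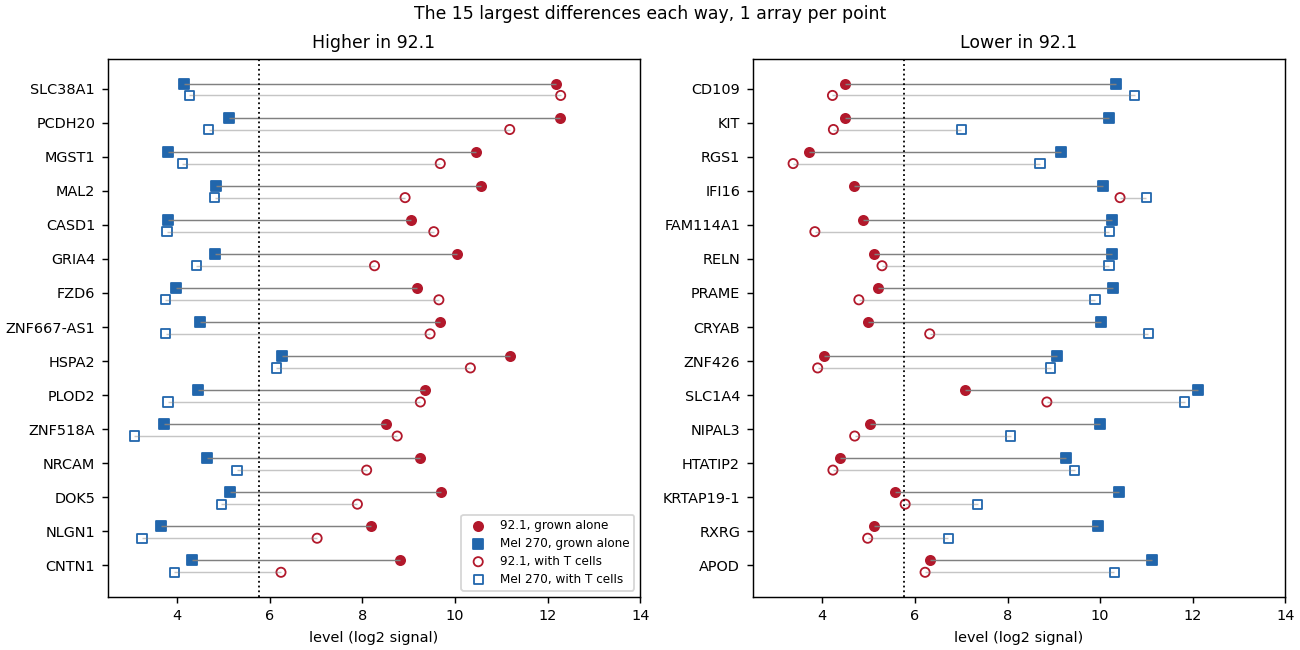
Levels (log2 signal, horizontal axis) of the 15 genes with the largest positive differences (left panel) and the 15 with the largest negative ones (right panel), for 92.1 (red circles) and Mel 270 (blue squares), grown alone (filled) and with T cells (open), 1 array per point, with grey lines joining the lines in 1 culture. The dotted line is the filter level of 5.76, and in most genes the lower of the paired points lies left of it; IFI16 is the gene whose open points lie close together.

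Most of the large differences were also present in the T cell arrays, while a sizeable share of the small ones fell short of 2-fold there. Of the 877 genes at least 2-fold higher in 92.1, 577 (65.8%) were so with T cells as well, against 7.48% of all 13802 genes that were at least 2-fold higher in 92.1 in that culture. A further 263 differed the same way by less than 2-fold, 31 went the opposite way by less than 2-fold, and 6 went the opposite way by at least 2-fold. The share kept was 57.8% among genes 2- to 4-fold apart, 85.5% among those 4- to 8-fold apart and 91.6% among those at least 8-fold apart. Of the 508 genes at least 2-fold lower, 309 (60.8%) were so with T cells, against 5.59% of all genes, and the shares kept over the same steps of size were 52.0%, 80.2% and 92.6%. The comparison with T cells uses the same lines but none of the same arrays. Across the 13802 genes the difference alone and the difference with T cells correlated at r = 0.741, as a description over genes that share their arrays and are not independent.

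All 15 of the largest positive differences were at least 4-fold with T cells, against 2.29% of all genes in that direction. Of the 15 largest negative ones, 14 were at least 2-fold and 12 at least 4-fold, against 1.33% of all genes for the latter. The exception was IFI16, an interferon-induced gene, which stood at 10.43 in 92.1 with T cells and differed from Mel 270 by -0.58 there. KIT kept its direction at a smaller size (difference -2.77), with 92.1 at 4.24 and Mel 270 well below its level alone. PRAME, by contrast, gave nearly the same values in both cultures (4.79 and 9.89 with T cells, difference -5.10). In all, 12 of the 1385 genes were at least 2-fold apart in both cultures but in opposite directions, among them ARRDC3, SLC2A3, ASNS and PLAT.

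**Figure D2:**
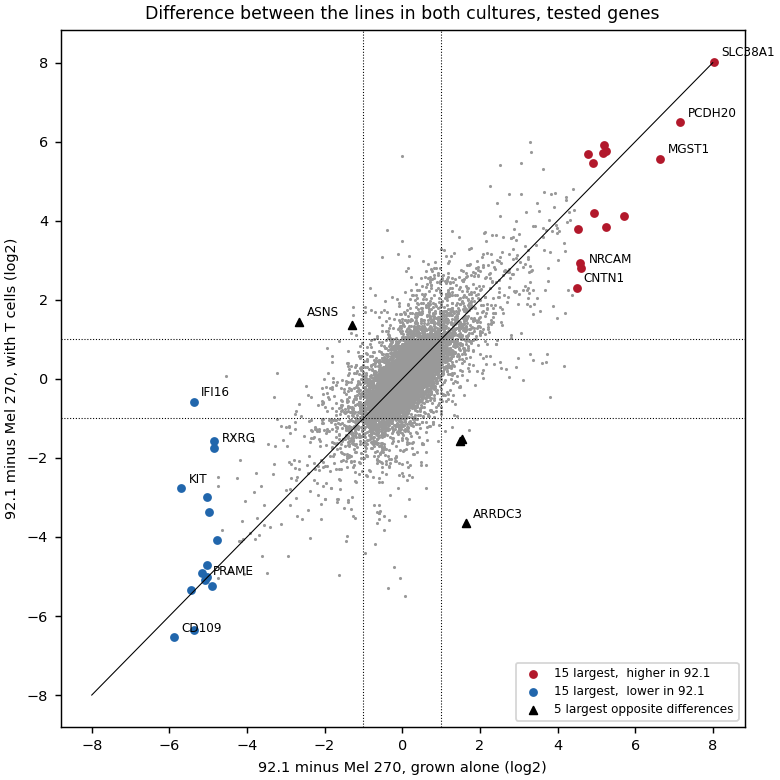
Difference between the lines (92.1 minus Mel 270, log2) grown alone on the horizontal axis and with T cells on the vertical axis, 1 point per gene for the 13802 genes compared; dotted lines mark 2-fold and the diagonal marks equal differences. Red and blue points are the 15 largest positive and negative differences alone and black triangles the 5 genes with the largest opposite differences; SLC38A1 lies on the diagonal at 8.02, and IFI16 lies near 0 on the vertical axis.

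The main enzyme and structural genes of pigment synthesis were high in both lines and within 2-fold of each other. The list of melanin and melanosome genes had 26 members, of which 24 had a probe set of 1 symbol and 21 passed the filter. At least 2-fold higher in 92.1 were 2 (9.52%, beside 6.35% over all genes), and at least 2-fold lower 2 (9.52%, beside 3.68%). The median difference was -0.03 against -0.026 over all genes. TYRP1, an enzyme of melanin synthesis, stood at 13.19 in 92.1 and 13.05 in Mel 270, and the melanosome matrix protein PMEL at 13.08 and 12.55. MLANA stood at 12.18 and 12.46, GPNMB at 12.60 and 12.74, and CD63, which sorts PMEL in the forming melanosome, at 10.98 and 10.97. These structural and enzyme genes were thus strongly expressed in both lines. Tyrosinase, encoded by TYR and rate-limiting for melanin, stood at 10.96 and 11.72, a difference of -0.76 that stays within 2-fold. The genes more than 2-fold apart act in the ion balance of the melanosome or in its transport. SLC45A2, a transporter that keeps the melanosome's pH suited to tyrosinase, stood at 10.02 in 92.1 and 6.56 in Mel 270 (difference 3.46) and at 7.52 and 5.46 with T cells. OCA2, a melanosomal anion channel, was lower in 92.1 at 10.24 against 11.50 (difference -1.26). MLPH, the melanophilin that links the small GTPase RAB27A to myosin Va, was at 7.21 in 92.1 and 9.99 in Mel 270 (difference -2.77), while RAB27A was at 8.71 in 92.1 (difference 1.21) and MYO5A, the myosin, at 10.32 and 10.07. The members of this transport complex therefore differed in opposite directions. The other compared members stayed within 2-fold: RAB32 (0.79), RAB38 (0.31), SLC24A5 (0.15), GPR143 (0.14), MREG (-0.03), AP3D1 (-0.17), HPS4 (-0.28), HPS5 (-0.71), ATP7A (-0.80) and BACE2 (-0.83). DCT was not analysed here.

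Of the transcription factors of the melanocyte lineage, MITF, SOX10 and SNAI2 were close to equal, while IRF4 and the receptors KIT and EDNRB were more than 2-fold apart. Of 30 listed lineage genes 26 were compared, with a median of -0.02. At least 2-fold higher in 92.1 was 1 (3.85%, beside 6.35% over all genes), and at least 2-fold lower were 4 (15.4%, beside 3.68%). MITF, the master regulator of the lineage, stood at 11.01 in 92.1 and 11.03 in Mel 270, SOX10 at 8.87 and 9.21, and SNAI2 at 12.44 and 12.32. SOX9, TFE3, TFEB, TBX2 and FOXD3 each differed by 0.11 or less in size. PAX3 (0.83), SOX6 (0.82), ALX1 (0.78), TBX3 (0.56), TFAP2A (0.51) and SOX5 (0.36) were higher in 92.1 by less than 2-fold, and LEF1 (-0.76) was lower by less than 2-fold. The cadherin CDH19 differed by 0.31 and the ligand EDN3 by -0.11. With T cells MITF was 1.29 higher in 92.1 (10.22 and 8.93), so the equality of MITF between the lines held for growth alone. Among the receptors, KIT was the gene of the list with the largest difference, and EDNRB, the endothelin receptor of melanocytes, went the other way with 11.72 in 92.1 and 10.31 in Mel 270 (difference 1.40). EDNRB did not keep that difference with T cells (10.81 and 10.90). MC1R, the melanocortin receptor that drives eumelanin synthesis, was at 7.57 and 8.54 (difference -0.97). S100B, a calcium-binding protein used as a melanoma marker, was at 4.71 in 92.1 and 9.07 in Mel 270 (difference -4.36), the pigmentation factor IRF4 at 7.29 and 8.68 (-1.38), and the transporter ABCB5 at 7.22 and 8.41 (-1.19). IRF4 kept its direction with T cells (-1.64), and ABCB5 did not (0.34).

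Of the transcripts that sort uveal melanoma into classes, ID2 and MTUS1 were 2-fold apart. Of the 8 genes known to be higher in class 1 tumours, 2 were at least 2-fold higher in 92.1 (beside 6.35% over all genes). None was at least 2-fold lower (beside 3.68%). The median was -0.07, with 3 genes above 0 and 5 below 0, so the list as a whole did not lean towards 92.1. ID2, an inhibitor of helix-loop-helix factors, stood at 10.07 and 6.94 (difference 3.12) but was equal with T cells (7.86 and 7.91). MTUS1, a microtubule-associated protein, was at 8.80 and 7.68 (difference 1.12) and at 8.89 and 6.73 with T cells. EIF1B, FXR1 and LTA4H differed by 0.14 or less in size, ROBO1 by 0.52, LMCD1 by -0.88 and SATB1 by -0.98. Of the 4 class 2 genes 3 were compared and none was 2-fold apart: HTR2B, a serotonin receptor, differed by -0.94, ECM1 by -0.09 and RAB31 by 0.72. CDH1 was below the filter level in both lines, at 5.09 and 5.05. Among the mutated drivers and PRAME, 7 of 9 genes were compared and only PRAME was 2-fold apart. GNAQ stood at 10.34 in 92.1 and 9.37 in Mel 270 (difference 0.98, and 0.54 with T cells), GNA11 at 9.49 and 9.13, SF3B1 at 10.93 and 11.04, EIF1AX at 11.04 and 10.48, SRSF2 at 11.05 and 10.65 and PLCB4 at 6.96 and 6.42. BAP1 was not analysed here.

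Downstream of Gq, several effectors were higher in 92.1 and none of those compared was 2-fold lower. Of 28 genes of Gq, phospholipase C and protein kinase C signalling 25 were compared; 5 were at least 2-fold higher in 92.1 (20.0% of the list, beside 6.35% over all genes) and the median was 0.10. PLCB1, a phospholipase C beta isoform that Gq activates, stood at 8.32 in 92.1 and 5.34 in Mel 270 (difference 2.97). The inositol trisphosphate receptor ITPR3 stood at 9.22 and 5.93 (difference 3.29) and ITPR2 at 7.46 and 6.33 (1.14). The conventional protein kinase C isoform PRKCB was at 7.82 and 5.75 (2.08) and the calcium-independent isoform PRKCQ at 6.55 and 5.36 (1.20). PRKCA, another conventional isoform, leaned the other way at 7.97 and 8.93 (-0.96), and reached -1.82 with T cells. PLCB1 (1.90), ITPR3 (1.84) and PRKCQ (1.16) kept a 2-fold difference with T cells, while PRKCB (0.52) and ITPR2 (-0.33) did not. PRKCE, PRKCZ and ARF6 differed by 0.16 or less in size. Of the RGS proteins, which switch G proteins off, 11 were compared and only RGS1 was 2-fold apart; RGS2, RGS16, RGS20, RGS14 and RGS19 differed by 0.33 or less in size.

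Of 27 compared transcripts that report MAPK output, 2 were at least 2-fold higher in 92.1 (7.41%, near the 6.35% over all genes) and 3 at least 2-fold lower (11.1%, beside 3.68%), and the median was 0.23. CCND1, the cyclin D1 of the G1 phase, stood at 11.05 in 92.1 and 8.88 in Mel 270 (difference 2.17, and 3.18 with T cells), and the ETS factor ETV4 at 9.01 and 7.72 (1.29). The phosphatase DUSP10 (-1.79), the early response gene IER3 (-1.67) and the feedback inhibitor SPRY1 (-1.36) were higher in Mel 270. EGR1, SPRY4 and SPRED1, which also respond to this pathway, stood within 0.11 of each other in the lines. For the YAP and TEAD targets, 1 of 23 was 2-fold higher (4.35%, beside 6.35%), FJX1 with a difference of 1.00. Another 1 was at least 2-fold lower (4.35%, beside 3.68%), WWTR1, the coactivator TAZ, with -1.20. YAP1 itself stood at 9.79 and 9.89.

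Of 18 compared receptor tyrosine kinases 11 were within 2-fold, 2 were at least 2-fold higher in 92.1 (11.1%, beside 6.35% over all genes) and 5 at least 2-fold lower (27.8% of the list, beside 3.68% over all genes). Beside KIT, the hepatocyte growth factor receptor MET was lower in 92.1, at 9.81 against 11.91 in Mel 270 (-2.10, and -3.16 with T cells). ERBB4 stood at 6.73 and 8.12 (-1.39) and FGFR2 at 5.91 and 7.11 (-1.20). Higher in 92.1 were ERBB2, at 7.98 and 6.34 (1.64, and 1.69 with T cells), and the collagen receptor DDR2, at 10.59 and 9.37 (1.22, and 2.44 with T cells). FGFR3, chosen after its value was seen, made up the count of lower genes with a difference of -1.01. ERBB3, TYRO3 and FGFR4 stayed within 0.22 of equality.

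**Figure D3:**
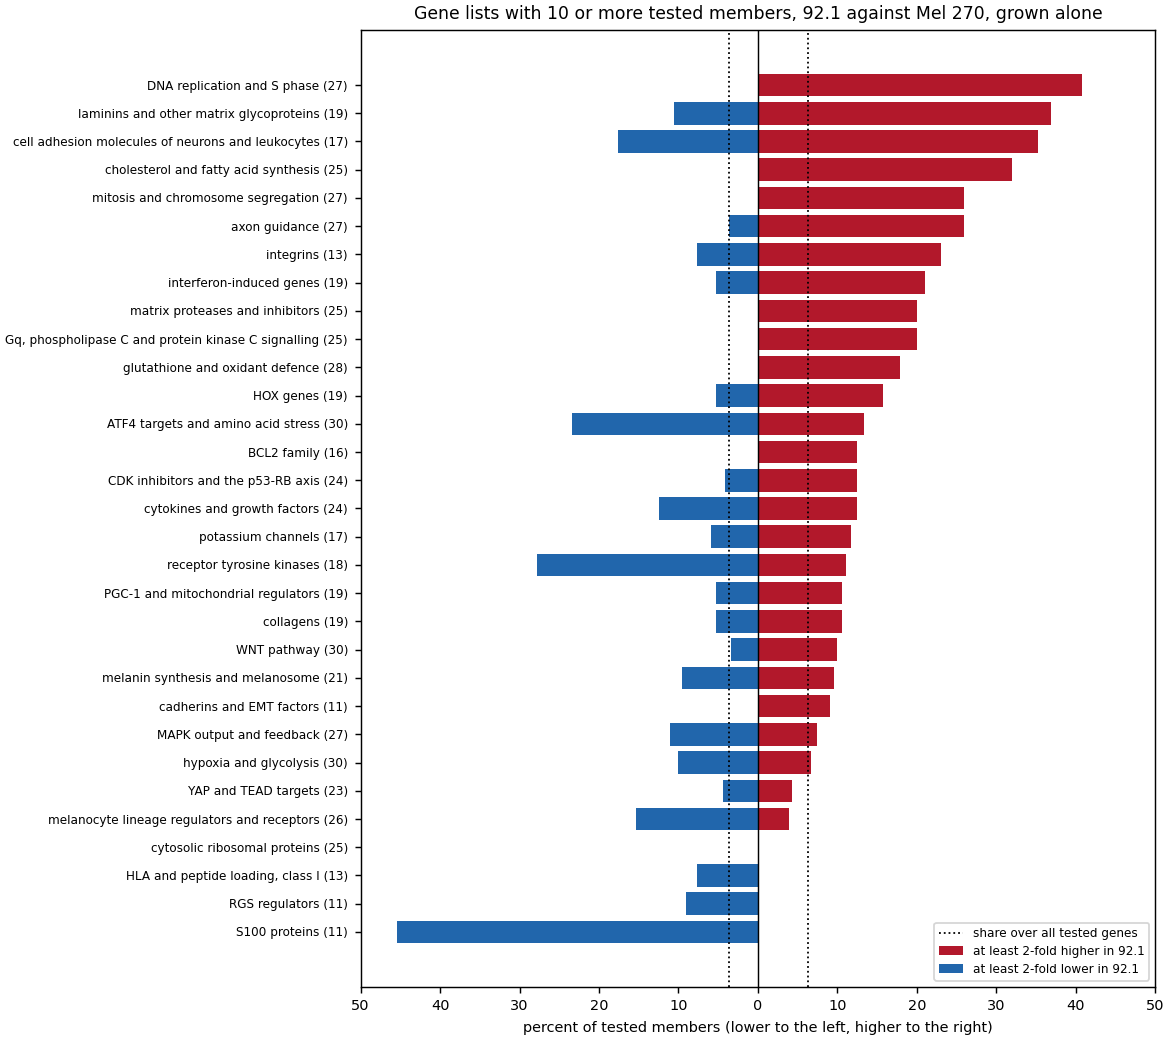
Percent of the compared members of each gene list that were at least 2-fold higher (red, to the right) or lower (blue, to the left) in 92.1 than in Mel 270, grown alone, for lists with 10 or more compared members, whose number stands in brackets. Dotted lines mark the share over all 13802 genes, 6.35% higher and 3.68% lower; the list of DNA replication and S phase has the highest share of higher genes and that of S100 proteins the highest share of lower ones.

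Genes of DNA replication were higher in 92.1 without exception among those compared. Of 28 listed genes 27 were compared, all 27 had a positive difference, 11 were at least 2-fold higher (40.7%, beside 6.35% over all genes) and the median was 0.84. UHRF1, which carries DNA methylation through replication, stood at 9.59 in 92.1 and 7.25 in Mel 270 (difference 2.34). MCM10, which helps to fire origins, stood at 8.90 and 6.96 (1.93), and GINS2, a subunit of the replicative helicase, at 10.50 and 8.63 (1.86). The helicase subunit MCM4 differed by 1.65, the licensing factor CDC6 by 1.63 and RFC3, a subunit of the clamp loader, by 1.41. At the lower end, MCM5 differed by 0.21, RRM1 by 0.24 and TYMS by 0.32. With T cells all 27 differences were again positive, with a median of 1.01 and 14 at least 2-fold (beside 7.48% of all genes in that culture).

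The genes of mitosis also had higher signals in 92.1, by smaller amounts when the cells were grown alone. Of 27 compared, 26 had a positive difference and 7 were at least 2-fold higher in 92.1 (25.9%, beside 6.35% over all genes), with a median of 0.72. The mitotic kinase CDK1 stood at 9.28 and 7.96 (1.33), its partner cyclins CCNA2 at 10.24 and 9.08 (1.16) and CCNB1 at 9.46 and 8.34 (1.11). The checkpoint genes MAD2L1 and TTK differed by 1.36 and 1.28, and the separase ESPL1 by 1.06. NUSAP1 (0.14), AURKB (0.23) and the kinesin KIF20A (-0.09) lay nearest to equality. With T cells the median was 1.99 and 24 of the 27 were at least 2-fold higher in 92.1 (beside 7.48% of all genes in that culture). CDK1 then stood at 7.97 and 4.78. Among cell cycle regulators, CCNE2, a cyclin E of the G1 to S transition, stood at 8.10 and 6.24 (1.86), and the retinoblastoma gene RB1 at 10.06 and 8.95 (1.10). The inhibitor CDKN2A was equal at 8.54 and 8.50, and GDF15, a secreted stress cytokine that p53 also induces, was at 8.04 in 92.1 and 11.88 in Mel 270 (-3.84). The number of cells plated differed between the lines, 80000 against 100000, and per the labels both grew on to confluency in the serum-free medium. The part of plating and density in these differences was not tested.

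To show the sequence that several of these replication genes share, the 250 bases before the annotated start are given for 4 of the genes at least 2-fold higher in 92.1 whose promoter holds the E2F motif. E2F factors, released when cyclin D and cyclin E kinases inactivate the retinoblastoma protein, switch on S phase genes. Capitals mark a match, and the sequences are RefSeq's on GRCh38.p14, printed 5′ to 3′ along the strand of the gene: UHRF1 at chr19:4909251-4909500 (plus strand), GINS2 at chr16:85688955-85689204 (minus), RFC3 at chr13:33817899-33818148 (plus) and PCNA, the sliding clamp, at chr20:5126623-5126872 (minus).
UHRF1: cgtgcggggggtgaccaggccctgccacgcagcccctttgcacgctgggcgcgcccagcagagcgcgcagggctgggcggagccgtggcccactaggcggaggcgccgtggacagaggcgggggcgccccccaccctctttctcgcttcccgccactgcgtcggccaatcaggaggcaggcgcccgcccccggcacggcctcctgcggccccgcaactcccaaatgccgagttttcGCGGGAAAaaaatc
GINS2: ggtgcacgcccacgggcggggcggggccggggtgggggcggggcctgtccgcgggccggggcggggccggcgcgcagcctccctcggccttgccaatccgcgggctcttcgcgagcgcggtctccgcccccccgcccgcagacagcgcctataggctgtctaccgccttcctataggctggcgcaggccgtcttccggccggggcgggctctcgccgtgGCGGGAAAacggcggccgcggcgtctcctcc
RFC3: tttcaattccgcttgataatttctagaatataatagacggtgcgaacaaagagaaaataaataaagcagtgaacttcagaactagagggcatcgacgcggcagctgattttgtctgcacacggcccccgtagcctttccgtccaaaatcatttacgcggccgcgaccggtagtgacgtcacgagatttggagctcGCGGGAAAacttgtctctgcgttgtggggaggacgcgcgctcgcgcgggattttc
PCNA: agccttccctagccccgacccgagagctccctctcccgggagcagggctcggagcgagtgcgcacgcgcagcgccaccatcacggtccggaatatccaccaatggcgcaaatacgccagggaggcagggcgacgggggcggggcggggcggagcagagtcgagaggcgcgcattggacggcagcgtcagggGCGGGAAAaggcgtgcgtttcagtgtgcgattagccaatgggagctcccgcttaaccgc
Counted back from the start, the match begins at position -14 in UHRF1, -31 in GINS2, -55 in RFC3 and -59 in PCNA. The search, added after the values were seen, covered the letters TTTCCCGC, TTTCGCGC, TTTGCCGC and TTTGGCGC on both strands. It found a match in 10 of the 25 compared replication genes with a promoter in the table, in 1 of 22 such mitosis genes (4.55%) and in 761 of all 27305 promoters (2.79%). The letters describe the sequence only. PCNA stood at 9.55 in 92.1 and 8.22 in Mel 270 (difference 1.33), and at 8.33 and 7.10 with T cells.

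**Figure D4:**
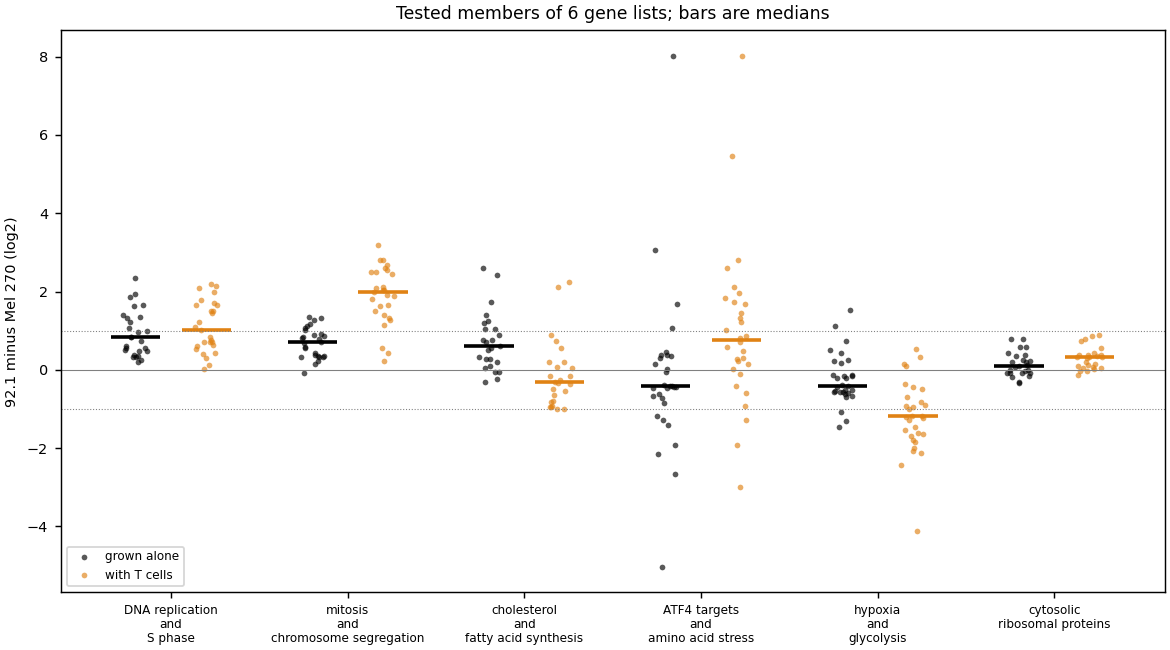
Difference between the lines (92.1 minus Mel 270, log2) of every compared member of 6 gene lists, grown alone (black) and with T cells (orange), 1 point per gene with a bar at the median; dotted lines mark 2-fold. The replication and mitosis lists lie above 0 in both cultures, the medians of the cholesterol and ATF4 lists change sign, and the ribosomal proteins stay within 2-fold in both.

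The secreted matrix and its receptors differed in named members more than as whole lists. Among 19 compared laminins and other matrix glycoproteins, 7 were at least 2-fold higher in 92.1 (36.8%, beside 6.35% over all genes) and 2 at least 2-fold lower (10.5%, beside 3.68%), although the median was -0.13. The laminin chains LAMB1 and LAMA1, parts of basement membrane, stood at 10.20 and 10.04 in 92.1 and at 6.40 and 7.49 in Mel 270 (differences 3.80 and 2.55). LAMC1, LAMB2 and LAMA5 did not follow, with differences of -0.13, -0.32 and -0.40. The proteoglycan versican, VCAN, stood at 7.94 and 4.78 (3.17), the fibrillin FBN2 at 8.45 and 5.30 (3.15) and the collagen-binding SPARC at 11.11 and 8.55 (2.55). Fibronectin, FN1, was lower in 92.1 at 8.04 and 10.20 (-2.17), like lumican (-3.62). All of the named differences beyond 2-fold kept their direction and passed 2-fold with T cells. Of 19 collagens 2 were at least 2-fold higher (10.5%, beside 6.35%) and 1 at least 2-fold lower (5.26%, beside 3.68%). The higher ones were the basement membrane pair COL4A1 (1.28) and COL4A2 (1.14), which are transcribed from a shared promoter region. The lower one was the fibrillar COL11A1, at 5.95 in 92.1 and 10.15 in Mel 270 (-4.20).

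Among 13 integrins, 3 were at least 2-fold higher in 92.1 (23.1%, beside 6.35%): ITGA9 (1.69), the common beta chain ITGB1 at 10.65 and 9.22 (1.43), and the fibronectin receptor chain ITGA5 (1.06). ITGB8, which activates latent transforming growth factor beta, was lower at 5.42 and 8.14 (-2.72). Among 25 matrix proteases and inhibitors, 5 were at least 2-fold higher (20.0%, beside 6.35% over all genes) and none at least 2-fold lower (beside 3.68%), with a median of 0.14 that was -0.06 without the filter. With T cells 5 were at least 2-fold higher (beside 7.48% of all genes in that culture) and 7 at least 2-fold lower (beside 5.59%), with a median of -0.17. The protease inhibitor TIMP1 stood at 10.74 in 92.1 and 6.54 in Mel 270 (difference 4.20, 18.3-fold), and at 11.01 and 9.34 with T cells. The membrane-type metalloproteases MMP16 (8.64 and 4.66, difference 3.98) and MMP14 (9.39 and 7.11, difference 2.28) and the metalloprotease ADAM12 (8.20 and 5.99, difference 2.21) were higher in 92.1 as well. PLAT, the tissue plasminogen activator, was higher alone (10.07 and 8.35) and lower with T cells (10.03 and 11.32). The shedding enzymes ADAM9 and ADAM10 differed by -0.13 and 0.46.

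Of 17 compared adhesion molecules of neurons and leukocytes, 6 were at least 2-fold higher in 92.1 (35.3%, beside 6.35% over all genes) and 3 at least 2-fold lower (17.6%, beside 3.68%). Beside NRCAM, NLGN1 and CNTN1, ALCAM stood at 8.04 and 4.43 (difference 3.62) and ICAM1, the ligand of leukocyte integrins, at 8.74 and 6.00 (2.74). ICAM1 was at 12.28 and 7.60 with T cells, a larger difference of 4.68. CHL1, a relative of NRCAM, went the other way at 4.83 and 7.75 (-2.92). Mel 270 lay below the filter level in NRCAM, NLGN1, CNTN1 and ALCAM, so these passed the filter only through 92.1, as CHL1 did through Mel 270. The median of this list was 0.28, and -0.01 without the filter. CD44, the hyaluronan receptor, was equal at 12.06 and 12.07. Of 27 axon guidance genes 7 were at least 2-fold higher in 92.1 (25.9%, beside 6.35% over all genes) and 1 at least 2-fold lower (3.70%, beside 3.68%). Their median of 0.47 rested on the filter, since it was 0.11 both without a filter and with the filter on the mean over 6 arrays. The semaphorins SEMA5A (8.92 and 6.40), SEMA3A (7.89 and 5.82) and SEMA6A (11.99 and 10.16) differed by 2.52, 2.07 and 1.83, the receptor ROBO2 by 2.08 and the ephrin receptor EPHA5 by 1.84. SEMA5A reached 5.40 with T cells, whereas SEMA3A (0.03) and ROBO2 (0.23) lost their difference there. The median of the list with T cells was 0.00.

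Of 11 compared cadherins and EMT factors 1 was at least 2-fold higher in 92.1 (9.09%, beside 6.35% over all genes) and none at least 2-fold lower (beside 3.68%). It was the repressor ZEB1, at 7.60 in 92.1 and 5.45 in Mel 270 (2.15, and 3.49 with T cells). The mesenchymal regulators ZEB2 (9.74 and 9.92) and TWIST1 (8.88 and 8.71) stood close to each other in the lines. The mesenchymal marker vimentin, at 11.75 and 12.44, was also within 2-fold. In the WNT pathway 3 of 30 genes were at least 2-fold higher (10.0%, beside 6.35% over all genes) and 1 at least 2-fold lower (3.33%, beside 3.68%). Beside FZD6, the secreted inhibitor SFRP1 stood at 9.33 and 6.01 (3.32, and 5.74 with T cells) and the co-receptor LRP6 at 9.98 and 8.97 (1.00). RNF43, which removes Frizzled receptors from the surface, was at 6.07 and 7.21 (-1.14).

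Of 30 compared ATF4 targets and genes of amino acid stress, 4 were at least 2-fold higher in 92.1 (13.3%, beside 6.35% over all genes) and 7 at least 2-fold lower (23.3%, beside 3.68%), with a median of -0.43. The amino acid transporters among them ranged from SLC38A1 and SLC1A4, far apart in opposite directions, to SLC7A1 (0.35) and SLC7A5 (0.29). PSAT1, an enzyme of serine synthesis, stood at 8.97 and 5.91 (3.06). ASNS, the asparagine synthetase, stood at 7.31 in 92.1 and 9.96 in Mel 270 (-2.65), the mTOR inhibitor DDIT4 at 7.11 and 9.26 (-2.15), and WARS1, the tryptophanyl-tRNA synthetase, at 9.16 and 11.07 (-1.91). With T cells the median of this list was 0.76. In that culture 13 members were at least 2-fold higher in 92.1 (beside 7.48% of all genes) and 3 at least 2-fold lower (beside 5.59%). ASNS then stood at 9.92 and 8.47. SLC38A1, PSAT1, SLC1A4 and DDIT4 kept their direction at 2-fold or more in that culture, while WARS1 was close to equal (0.16).

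Most genes of cholesterol and fatty acid synthesis had higher signals in 92.1 when the cells were grown alone, and not with T cells. Of 25 compared, 8 were at least 2-fold higher in 92.1 (32.0%, beside 6.35% over all genes), none was at least 2-fold lower, 21 had a positive difference and the median was 0.61. ELOVL6, an elongase of fatty acids, stood at 10.92 and 8.31 (2.61), and INSIG1, which holds back the activation of sterol-responsive transcription, at 10.50 and 8.09 (2.41). The desaturase FADS1 differed by 1.73, the synthase HMGCS1 by 1.41 and the epoxidase SQLE by 1.24, whereas FDPS (0.04) and PMVK (-0.05) were equal. With T cells the median was -0.31 and only 2 members were at least 2-fold higher (beside 7.48% of all genes in that culture), ELOVL6 (2.12) and FADS2 (2.24). HMGCS1 then stood at 10.50 in 92.1 and 11.44 in Mel 270. Genes of hypoxia and glycolysis leaned towards Mel 270, with a median of -0.40 and 22 of 30 below 0. Only 3 were at least 2-fold lower in 92.1 (10.0%, beside 3.68% over all genes). At least 2-fold higher were 2 (6.67%, near the 6.35% over all genes), SLC2A3 (1.54) and ENO2 (1.12). The vasoactive peptide ADM differed by -1.46, EPAS1, which encodes HIF-2 alpha, by -1.31 and the collagen prolyl hydroxylase P4HA1 by -1.07. The glycolytic enzymes GAPDH (-0.12), TPI1 (-0.12) and ENO1 (-0.16) were close to equal. The list's median reached -1.19 with T cells, where 18 members were at least 2-fold lower in 92.1 (beside 5.59% of all genes in that culture). The plating numbers given above apply to these lists too, and their part was not tested.

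Among 28 genes of glutathione and oxidant defence 5 were at least 2-fold higher in 92.1 (17.9%, beside 6.35% over all genes) and none at least 2-fold lower (beside 3.68%). Beside MGST1, the mu-class transferases GSTM3 (8.42 and 6.10, difference 2.33) and GSTM1 (8.15 and 6.56, difference 1.59), the secreted peroxidase GPX3 (7.91 and 5.83, difference 2.08) and the quinone reductase NQO1 (12.10 and 10.37, difference 1.72) made up the count. GSTM4, MGST3 and SOD3 differed by 0.11 or less in size. GSTM genes are close paralogs, so the split of signal between them is uncertain. In the list of mitochondrial regulators 2 of 19 genes were at least 2-fold higher (10.5%, beside 6.35%). They were the uncoupling protein UCP2 (2.13) and the mitochondrial DNA factor TFAM (1.45). PDK4, the kinase that closes the pyruvate dehydrogenase gate, was lower at 6.67 in 92.1 and 10.73 in Mel 270 (-4.06, and -3.08 with T cells). PPARGC1A stood at 7.69 and 8.43.

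Most genes of class I antigen presentation were within 2-fold when the cells were grown alone. Of 13 class I genes compared, none was at least 2-fold higher in 92.1 and 1 was at least 2-fold lower, the trimming peptidase ERAP1 at 7.31 and 8.75 (-1.44). B2M, the light chain of class I, stood at 10.07 and 10.59, TAP1 at 7.77 and 8.28, and TAPBP at 11.10 and 11.05. Of 6 compared class II genes, 2 were at least 2-fold higher (33.3%, beside 6.35% over all genes) and 1 at least 2-fold lower (16.7%, beside 3.68%). HLA-DPA1 stood at 7.25 and 5.14 (2.11) and HLA-DPB1 at 7.83 and 6.08 (1.76), both higher in 92.1, and the peptide exchanger HLA-DMA at 7.68 and 8.75 (-1.08). Both HLA-DP genes kept their direction with T cells, at 11.21 and 7.51 and at 9.49 and 6.18. HLA genes are polymorphic and closely related, so the values of single HLA genes are uncertain. Only 19 of 40 interferon-induced genes passed the filter; 4 were at least 2-fold higher in 92.1 (21.1%, beside 6.35% over all genes) and 1 at least 2-fold lower (5.26%, beside 3.68%). The membrane proteins IFITM3 (8.89 and 6.09), IFITM2 (9.23 and 6.85) and IFITM1 (6.83 and 5.70), which block viral entry, differed by 2.80, 2.38 and 1.14, and IFI6 by 1.37. These paralogs can bind each other's probes. IFI35 went the other way (-1.67), and IRF7 and IRF9 differed by -0.20 and -0.15.

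None of the 8 chemokines that passed the filter was 2-fold apart when the lines were grown alone; CXCL8 stood at 5.98 and 6.40 and CCL5 at 5.57 and 6.26, both near the filter level. Of 24 cytokines and growth factors, 3 were at least 2-fold higher in 92.1 (12.5%, beside 6.35% over all genes). They were BMP4 at 7.83 and 5.74 (2.08), the platelet-derived growth factor PDGFC (1.75) and BMP2 (1.11). Beside GDF15, IL24 (-1.40) and IL16 (-1.02) were at least 2-fold lower, 3 in all (12.5%, beside 3.68%). Of 9 complement genes only CD59, which blocks the membrane attack complex, was 2-fold apart, at 9.41 in 92.1 and 10.85 in Mel 270 (-1.44, and -1.30 with T cells).

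The S100 proteins were the list with the largest share of lower genes in 92.1: 5 of 11 compared (45.5%, beside 3.68% over all genes), with all 11 below 0 and a median of -0.20. S100A10, the partner of annexin A2 at the cell surface, stood at 8.04 and 11.78 (-3.74, and -3.51 with T cells). Beside it and S100B, S100A13 (-1.35), S100A1 (-1.21) and S100A16 (-1.15) passed 2-fold, and S100A11 (-0.20) did not. Of 16 genes of the BCL2 family 2 were at least 2-fold higher (12.5%, beside 6.35% over all genes). They were the death-promoting PMAIP1 (8.18 and 6.40, difference 1.78) and BID (9.06 and 7.91, difference 1.15). BCL2L1, BAK1 and BAD differed by 0.12 or less in size. Of 17 potassium channel genes KCND3 and KCNQ5, each with a difference of 1.29, were higher (11.8%, beside 6.35%). KCNJ10 (-1.10) was lower (5.88%, beside 3.68%). Of 9 compared genes in the metallothionein list, which also holds the transcription factor MTF1, only MT1X was 2-fold apart (11.1%, beside 6.35%). It stood at 8.34 and 6.71 (1.63), with paralogs that share probes. Of 7 cancer-testis antigens that passed the filter PRAME alone was 2-fold apart. None of 25 ribosomal protein genes was 2-fold apart (median 0.09).

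Some gene families that lie clustered in the genome, picked out after the values were seen, are given next by their counts. Of 184 compared ZNF genes on chromosome 19, which encode zinc finger proteins and lie in arrays, 40 were at least 2-fold higher in 92.1 (21.7%) and 8 at least 2-fold lower (4.35%), whereas of 907 other genes of that chromosome 29 were higher (3.20%) and 10 lower (1.10%). With T cells 31 of the 40 remained at least 2-fold higher. Mel 270 lay below the filter level in 21 of the 40. By the deposited signals ZNF730 had the largest difference of them, 4.32, and ZNF558 and ZNF253 followed with 3.25 and 3.23, while ZNF426 at -5.03 was the largest in the other direction. Zinc finger genes share sequence, so single members are uncertain. Over all chromosomes, 63 of 394 ZNF genes were at least 2-fold higher and 13 at least 2-fold lower (3.30%).

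The alpha and beta protocadherin clusters on chromosome 5, which encode cell surface proteins of neural identity, had medians of opposite sign. All 11 compared alpha protocadherins had a positive difference, 5 at least 2-fold (45.5%, beside 6.35% over all genes). Their median was 0.91 alone and 1.08 with T cells. PCDHA10 had the largest, at 9.36 in 92.1 and 6.80 in Mel 270 (2.56). Alpha transcripts share their last exons, so probes may not tell the members apart. Of 7 beta protocadherins, 3 were at least 2-fold lower (42.9%, beside 3.68%) and 1 at least 2-fold higher (14.3%, beside 6.35%). Their median was -0.88 alone and -1.19 with T cells. PCDHB5 stood at 4.51 and 8.30 (-3.79) and PCDHB11 at 7.49 and 5.95 (1.54). Of 8 compared HOXB genes, which specify position along the body axis, 7 were above 0 and 3 at least 2-fold higher (37.5%, beside 6.35%). These 3 were HOXB13 (1.28), HOXB9 (1.26) and HOXB6 (1.21). HOXB9 reached 3.12 with T cells, from 9.66 and 6.55. HOXC10 was the HOX gene that was lower, at 5.02 and 7.88 (-2.86).

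Medians over whole chromosomes differed by small amounts. The median difference was 0.23 on chromosome 9 and 0.21 on chromosome 13, against -0.17 on chromosome 7, -0.16 on chromosome 22 and -0.15 on chromosome 21. With T cells these medians were 0.20, 0.21, -0.20, -0.17 and -0.14, so they moved by at most 0.03 between the cultures. They depended more on the filter: without one, the median was 0.11 on chromosome 9 and 0.04 on chromosome 13, and with the filter at the array median it was 0.43 on chromosome 9 and -0.03 on chromosome 21. On chromosome 9, 68 of 564 genes were at least 2-fold higher in 92.1 (12.1%, beside 6.35% over all genes) and 4 lower (0.709%, beside 3.68%). The largest of them were the sialic acid enzyme GNE at 8.54 and 4.50 (4.04), the zinc finger gene ZNF462 (3.77), PSAT1 (3.06), the nuclear receptor NR4A3 (2.92) and ZNF483 (2.69). On chromosome 13, 36 of 228 were higher (15.8%) and 6 lower (2.63%). PCDH20, KBTBD7 (3.24), LMO7 (3.21) and the lysophosphatidic acid receptor LPAR6 (2.95) led there, and the glypican GPC6 was the largest lower gene (-4.26). Such shares of higher genes were not particular to chromosomes 9 and 13. They were 12.2% on chromosome 8, 12.4% on chromosome 18, 10.5% on chromosome 5 and 10.4% on chromosome 10. On chromosome 7, RELN, CPED1 (-4.11) and STEAP1B (-4.08) were the largest lower genes, while CASD1 and NRCAM were higher.

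Cutting the chromosomes into 324 blocks of 40 to 53 neighbouring compared genes showed where these shifts lay. The block median was at least 0.3 above 0 in 21 blocks and at least 0.3 below 0 in 6. Of these 27 blocks 26 had the same sign with T cells and 25 were at least 0.2 from 0 in that direction. Blocks with smaller medians often kept their sign as well, for example LOC440570 to NADK on chromosome 1 at -0.18 in both cultures. The kept sign is therefore not particular to these 27 blocks. The largest median, 0.68, was in the block from NRN1L to MTSS2 on chromosome 16, where 36 of 41 genes were above 0, and it was 0.38 with T cells; the adjoining block from VAC14 to ATMIN had 0.45 and 0.37. On chromosome 9 the block from TEX10 to WDR31 had a median of 0.58, with 12 of 40 genes at least 2-fold higher in 92.1 and none at least 2-fold lower, and 0.44 with T cells. On chromosome 7 the block from LRWD1 to TES had -0.49 and -0.53, with 33 of 42 genes below 0, and the block from CAV1 to ZC3HC1 had -0.39 and -0.48. Blocks on chromosomes 6 (ZNF292 to PREP, 0.45), 8 (PENK to TMEM70, 0.45) and 19 (THAP8 to FAM98C, 0.51) were also raised. The exception to the shared sign was the block from DTX3 to SLC35E3 on chromosome 12, with 0.32 alone and -0.02 with T cells. The DNA copy number of these wells was not measured here.

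**Figure D5:**
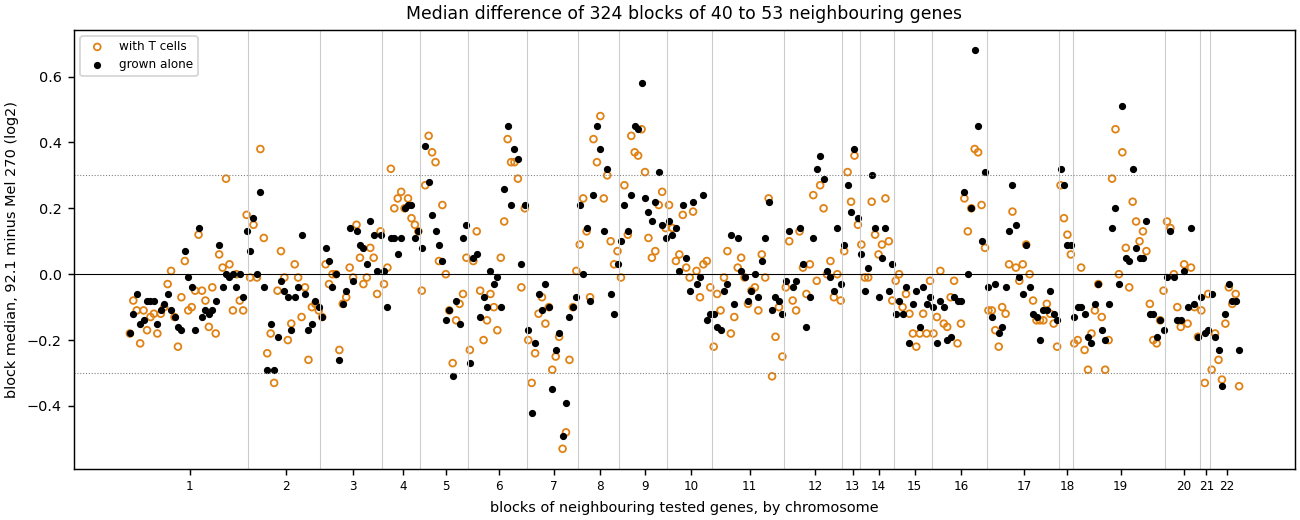
Median difference (92.1 minus Mel 270, log2) of 324 blocks of 40 to 53 neighbouring compared genes in chromosome order, grown alone (black) and with T cells (open orange circles), with dotted lines at 0.3 above and below 0. Runs of blocks on chromosomes 6, 8 and 9 lie above 0 and blocks on chromosome 7 below 0 in both cultures, and the highest point is the block from NRN1L to MTSS2 on chromosome 16 at 0.68.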

How the data were processed

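The authors deposited 1 log2 value per probe set and array, between 1.49 and 13.89. Per the submitters' processing notes, the software was Affymetrix Expression Console 1.2.0.20. How probes were summarized and arrays normalized is not given in the sources used here, so the values were used as the authors deposited them. Differences were taken in Python 3.11.15 with pandas 2.3.3 and numpy 2.4.6, and alternative scalings with limma 3.58.1 in R 4.3.3. The number of arrays, 1 a side, limits the precision, and no test was made.

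Of 33297 probe sets, 21214 were in the annotation, 19460 with 1 gene symbol and 1754 with several; the latter and the 12083 unlisted ones stay unnamed. By a RefSeq table of GRCh38.p14, 19429 matched a current symbol and 31 kept the old one. Several probe sets of a gene were reduced to that of highest mean, over 6 arrays. Genes with a mean over both arrays grown alone below the 25th percentile (5.76) were left out, as were XIST, Y-linked genes and members of lists that no single-symbol probe set covered. X-linked genes were left out of the chromosome medians.

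The members and the 46 gene lists were chosen with earlier results of these data known. Named are the 15 largest differences each way, the up to 6 largest and up to 3 nearest 0 of each list, all compared members of the melanin, lineage, class and driver lists that are counted, the 5 largest opposite differences, and up to 5 genes per chromosome described; FGFR3, PCNA, FN1, FADS2 and the family members of ZNF, protocadherin and HOXB genes were named after their values were seen. An E-box count in melanin gene promoters was planned and is void, because 16 of the 21 compared members, under 80%, had a promoter in the table. The steps were tested on simulated data. The alternatives were no filter, a filter at the median, a filter on the mean over 6 arrays, centring, quantile and cyclic loess scaling, low values raised to 5.76, and the mean of a gene's probe sets.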

Additional observations from a re-analysis of the deposited data

Results flagged for a closer look

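Some results differed between the cultures, in that the lines stood in one order when grown alone and in the opposite order with T cells. Each rests on 1 array per line and culture, and the difference between the cultures was not tested. ARRDC3, an arrestin-related protein, was 1.63 higher in 92.1 alone and differed by -3.65 with T cells. The glucose transporter SLC2A3 gave 1.54 and -1.53, STARD13 1.50 and -1.57, and the plasminogen activator PLAT 1.71 and -1.29. In the reverse order, ASNS gave -2.65 alone and 1.45 with T cells, and the sialyltransferase ST6GAL1 -1.30 and 1.36. The median of the cholesterol and fatty acid synthesis list was 0.61 alone and -0.31 with T cells, and that of the ATF4 list -0.43 and 0.76.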

How the results depend on the processing

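No paired analysis was possible because each line had 1 array per culture and no replicate could be left out. Over 8 alternatives, 3144 differences of named genes, counted once per gene and alternative, moved by less than the probe-set error of 0.26. In all, 56 moved by more and none turned. A filter cannot move the difference of a gene, so the entries of the filter alternatives were fixed in advance. Centring moves every difference by the same amount, set by medians of 7.85 in 92.1 and 7.78 in Mel 270. The mean of probe sets cannot move a gene with 1 probe set, and raising low values cannot turn a sign. A large part of the 3144 could therefore not have come out otherwise. Of the 56, 54 came with low values raised and 2 with the mean of a gene's probe sets. Without a filter the medians of matrix proteases, cadherins and neural adhesion turned to -0.06, -0.01 and -0.01, and axon guidance (0.11), WNT (-0.08), glutathione (-0.09) and retinal pigment epithelium lists (-0.09) and chromosomes 8 (0.02), 9 (0.11) and 13 (0.04) moved. With the filter at the median, fewer genes are compared: 570 were at least 2-fold higher, and 60.7% of higher and 55.7% of lower genes kept a 2-fold difference with T cells. The medians of the Gq (-0.21), chemokine (0.29), cadherin (-0.03), HOX (-0.04), monocyte (0.21) and epithelial lists (0.13) then turned. Those of interferon-induced genes (0.61), class II (-0.58), cytokines (-0.20), complement (0.08), integrins (-0.03), matrix proteases (0.64), receptor tyrosine kinases (-0.24), hypoxia (-0.51), S100 (-1.28), endothelial (-0.39), retinal pigment epithelium (-1.43) and fibroblast lists (-1.75), and of chromosomes 9 (0.43), 12 (0.15) and 21 (-0.03), moved. With the filter on 6 arrays, matrix proteases turned to -0.08, and neural adhesion (0.02), axon guidance (0.11) and retinal pigment epithelium (-0.63) moved. With low values raised, 61.8% of higher genes were kept. Scaling and probe-set alternatives changed none of the list medians' directions beyond 0.1. The filters change which genes are compared. Signals near background limit the sizes of the largest differences.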
